A study of Mus musculus with 6 samples.

Results

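The genes of fatty acid uptake, activation, mitochondrial import and beta-oxidation were followed in mouse quadriceps muscle after acute deletion of *Dnm1l*, the gene for Drp1. A total of 35 genes were chosen by symbol from the 27179 genes in the count files, for their place in this pathway, and all 35 were found once and passed the filter on low counts, which left 16483 genes. Bulk RNA-seq libraries were made from 3 miDrp1KO mice (replicates A, E and F) and 3 control mice (replicates B, C and D). All mice carried floxed *Dnm1l* alleles (labelled f/f in the controls), were male and received tamoxifen at 3 months of age. Muscle was studied 3 weeks after deletion following a fast of 6 hours. Sex, age, time and fasting were taken from the study's text. Its methods name normal chow or a high-fat diet, and the diet of the sequenced mice is not stated there. Only the miDrp1KO mice also carried HSA-MerCreMer, a tamoxifen-inducible Cre recombinase driven by the human skeletal actin promoter, so that deletion is confined by design to skeletal muscle fibres, while the tissue sequenced also holds vessels, fat, nerve and blood cells. The comparison asks whether loss of the mitochondrial fission protein Drp1 in adult muscle is accompanied by a different transcript supply for burning fat.

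Muscle takes up fatty acids that lipoprotein lipase frees from circulating triglyceride, with CD36 and fatty acid transport proteins at the membrane and a fatty acid-binding protein in the cytosol. Acyl-CoA synthetases activate them, the carnitine shuttle carries them across the mitochondrial membranes under the control of malonyl-CoA, and rounds of dehydrogenation, hydration, a further dehydrogenation and thiolytic cleavage shorten the chain, with electrons passing through the electron transfer flavoprotein to the respiratory chain. Slow and fast oxidative fibres are richer in this machinery than fast glycolytic fibres, and many of its genes are targets of PPAR and ERR nuclear receptors.

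Totals per library ran from 13989588 to 62042255 counts, and ribosomal RNA genes took from 1.48 to 24.4% of them. Levels are given as CPM, counts scaled to a common library total after TMM normalization, which allows for libraries of different make-up. *Dnm1l* itself was at 156, 114 and 140.3 CPM in controls B, C and D and at 70.6, 81.3 and 66.2 CPM in miDrp1KO mice A, E and F, lower in every miDrp1KO library (log2 fold change −0.91, adjusted p = 0.362 by edgeR). All 10 muscle fibre markers were detected, *Myh4* and *Ttn* among them, and together made 220309 to 279766 CPM in control and 98307 to 207141 CPM in miDrp1KO libraries. These sums are not scaled for transcript length. *Ttn*, with a transcript of 100404 bases, made 87773 to 141256 CPM in control and 26349 to 104112 CPM in miDrp1KO libraries. Of the 10 markers, 9 had negative log2 fold changes and *Mb* a positive one (0.67). Only *Myh4* had an unadjusted p under 0.05 by edgeR (beside 6.22% of all genes lower). In such bulk tissue, fewer fibres of a kind and less RNA per fibre cannot be told apart.

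No gene of the pathway was called after Benjamini-Hochberg adjustment over all genes tested (0 of 35 by edgeR's quasi-likelihood test, beside 0.0121% of all genes, and 0 of the 32 with an adjusted p in DESeq2, beside 0.700% of all genes with one, 55 of 7852). At an unadjusted p under 0.05, 3 of the 35 (8.57%) were lower in miDrp1KO muscle, beside 6.22% of all genes tested, and 0 were higher, beside 4.68%. The same 3 genes, *Acacb*, *Ucp3* and *Crat*, were the ones whose groups did not overlap downward (10.3% of all genes), and 0 had groups apart upward (7.67% of all genes). The shares lower are close to the background. The median log2 fold change of the 35 was −0.07, with 15 above and 20 below zero, beside a median of 0.02 for all tested genes. The 95% confidence interval left out both a halving and a doubling for 25 of the 35 genes, and included no change for 32.

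These counts depended on single mice. Without control replicate C the fit gave 6 lower genes of the 35 (17.1%), beside 5.45% of all genes tested in that fit, and without control replicate D it gave 1 (2.86%), beside 2.15%. Without control replicate B 3 genes (8.57%) were higher, beside 5.30% of all genes, and the median moved to 0.20. Without miDrp1KO replicate A 3 genes were also higher, beside 8.55% of all genes, with a median of 0.05. In 33 of the 35 genes the ratio of the highest to the lowest library inside one of the groups was larger than the fold change between the groups. A range of single libraries easily exceeds a small fold change between groups, and the share over all genes was not computed.

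**Figure D1:**
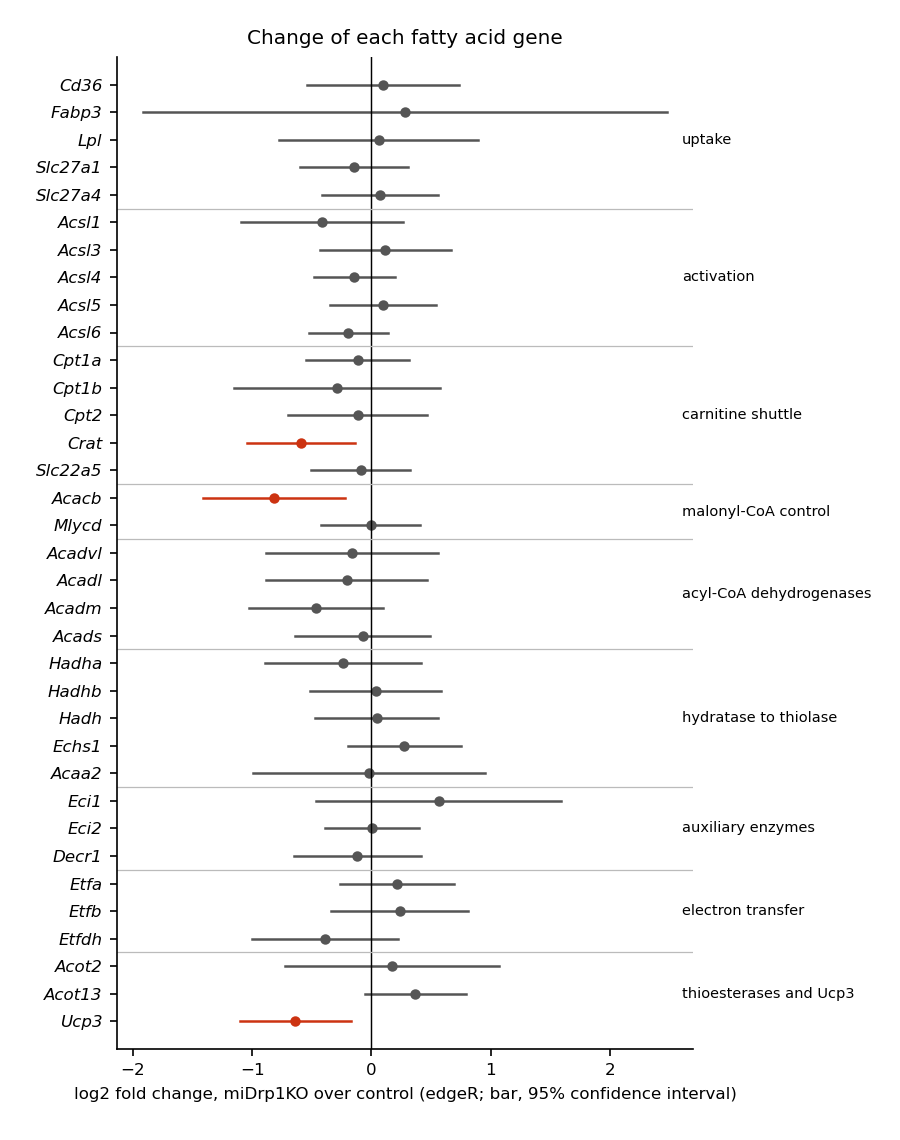
Log2 fold change of each of the 35 genes in miDrp1KO over control muscle (3 mice each), with bars for the 95% confidence interval from edgeR and genes in the order of the pathway. The intervals of *Crat*, *Acacb* and *Ucp3*, in red, lie below zero, and the other 32 cross it.

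Acetyl-CoA carboxylase 2, encoded by *Acacb* (chromosome 5 of GRCm38, 114146321 to 114250761), makes the malonyl-CoA that holds back carnitine palmitoyltransferase 1 at the outer mitochondrial membrane. *Acacb* was at 219, 153 and 177 CPM in controls B, C and D and at 138, 109 and 64.1 CPM in miDrp1KO mice A, E and F. Every miDrp1KO library was below every control library, and replicate F was the lowest. The means were 183 ± 33.5 CPM (SD, n = 3) and 104 ± 37.0 CPM (SD, n = 3), a log2 fold change of −0.82 (95% interval −1.41 to −0.23, standard error 0.27; adjusted p = 0.382, edgeR, and 0.0115 before adjustment). Its p stayed under 0.05 in all 14 alternative fits, with log2 fold changes from −1.06 without miDrp1KO replicate A to −0.55 without miDrp1KO replicate F and adjusted p never below 0.0924. *Mlycd*, whose product malonyl-CoA decarboxylase removes malonyl-CoA, stood at 39.6 ± 8.57 CPM in control and 39.5 ± 5.64 CPM in miDrp1KO muscle (SD, n = 3 each), with an interval of −0.42 to 0.41 for its log2 fold change.

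Uncoupling protein 3 is a carrier of the inner mitochondrial membrane found mainly in muscle, more so in fast than in slow fibres, and its gene follows fatty acid supply. *Ucp3* (chromosome 7, 100472991 to 100486432) was at 181, 145 and 214 CPM in controls B, C and D and at 120.3, 134 and 91.9 CPM in miDrp1KO mice A, E and F. The groups did not overlap, although the highest miDrp1KO library came close to the lowest control. The means were 179.8 ± 34.3 CPM and 116 ± 21.7 CPM (SD, n = 3 each), a log2 fold change of −0.64 (interval −1.10 to −0.17; adjusted p = 0.382, edgeR, and 0.0114 before adjustment). Its unadjusted p was above 0.05 in 2 alternatives, without control replicate D (0.0801) and with the share of ribosomal RNA as a covariate (0.0511).

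Carnitine acetyltransferase, the product of *Crat*, buffers the mitochondrial acetyl-CoA pool by handing acetyl groups to carnitine. *Crat* (chromosome 2, 30400476 to 30416017) was at 544, 365 and 450.0 CPM in controls B, C and D and at 324, 288 and 290.1 CPM in miDrp1KO mice A, E and F. The miDrp1KO libraries lay close together beneath all controls. The means were 453 ± 89.4 CPM and 301 ± 20.0 CPM (SD, n = 3 each), a log2 fold change of −0.59 (interval −1.05 to −0.14; adjusted p = 0.392, edgeR, and 0.0156 before adjustment). Its unadjusted p was above 0.05 without control replicate B (0.0961) or D (0.0548). One end of *Crat* overlaps the span of *Dolpp1*, which was at 5.43 to 6.67 CPM in all 6 libraries. For each of these 3 genes the exact permutation test (two-sided, over mice) gave p = 0.1, the smallest value possible with 3 against 3. Every gene whose groups do not overlap gives this value (7.67% of all genes higher and 10.3% lower). It therefore adds nothing to the lack of overlap.

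Markers of fast glycolytic fibres are given beside these 3 genes because most had values of the same sign. Of 10 such markers, 9 had negative log2 fold changes and 5 an unadjusted p under 0.05 (beside 6.22% of all genes lower), *Myh4* with −1.29 (adjusted p = 0.392, edgeR, and 0.0184 before adjustment) and *Pfkm* with −0.75 (adjusted p = 0.382, edgeR, and 0.0111 before adjustment) among them, and 0 were called after adjustment. *Pvalb* (0.03) and *Mylpf* (−0.03), which also belong to this list, lay near zero. The summed level of this list ran from 119172 to 146308 CPM in control and from 59082 to 113450 CPM in miDrp1KO libraries, and its part in the values of *Acacb*, *Ucp3* and *Crat* was not tested. The shared sign is not particular to this list, whose median log2 fold change was −0.59. Of 9 adipocyte markers tested, 8 had negative log2 fold changes (median −1.07). So had 9 of the 10 muscle fibre markers (median −0.56), a list that also holds *Myh4* and *Tnnt3*. The part of these 2 lists was not tested either.

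**Figure D2:**
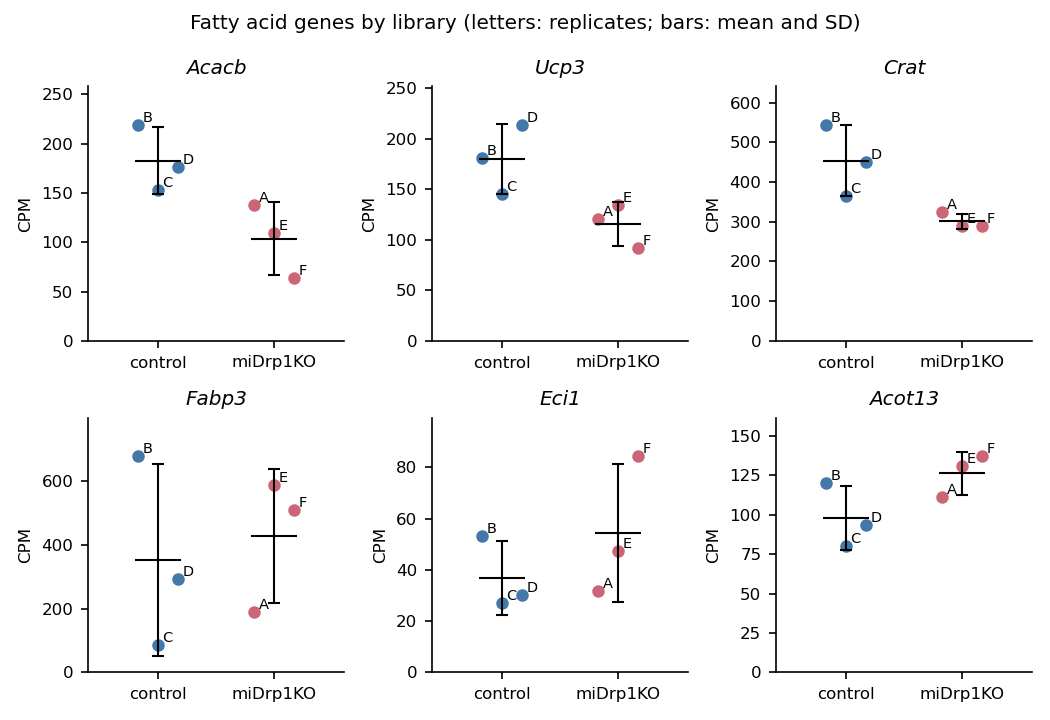
CPM of 6 genes in each library, on linear axes from 0, with letters for the replicates and bars for the mean and SD of 3 mice. *Acacb*, *Ucp3* and *Crat* show miDrp1KO points all below the control points, whereas *Fabp3*, *Eci1* and *Acot13* show groups that overlap, with replicate B high among controls.

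The proximal promoters of *Acacb* and *Ucp3* are shown because these genes were among the 3 lower ones, and that of *Hadha* because it is shared with a neighbouring gene, *Hadhb*. The windows are those RefSeq gives on GRCm38.p6, 250 bases before to 50 after a transcription start, at chr5:114165268-114165567 (plus strand, a start inside the *Acacb* gene span), chr7:100472741-100473040 (plus strand) and chr5:30154931-30155230 (minus strand). Capitals mark AGGTCA on either strand, the half-site bound by PPAR and ERR receptors, and TATAAA, and the *Hadha* window holds neither.
Acacb: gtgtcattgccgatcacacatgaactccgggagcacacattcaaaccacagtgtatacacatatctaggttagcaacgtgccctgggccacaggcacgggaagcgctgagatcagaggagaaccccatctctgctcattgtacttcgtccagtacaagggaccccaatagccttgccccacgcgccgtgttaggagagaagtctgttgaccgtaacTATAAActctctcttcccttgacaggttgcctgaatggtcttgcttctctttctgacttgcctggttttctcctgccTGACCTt
Ucp3: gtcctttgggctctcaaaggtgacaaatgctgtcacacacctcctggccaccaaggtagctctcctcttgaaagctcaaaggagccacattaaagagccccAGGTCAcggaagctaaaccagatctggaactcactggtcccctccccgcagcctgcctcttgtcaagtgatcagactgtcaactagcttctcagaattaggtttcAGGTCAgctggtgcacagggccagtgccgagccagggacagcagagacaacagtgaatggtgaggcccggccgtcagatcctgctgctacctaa
Hadha: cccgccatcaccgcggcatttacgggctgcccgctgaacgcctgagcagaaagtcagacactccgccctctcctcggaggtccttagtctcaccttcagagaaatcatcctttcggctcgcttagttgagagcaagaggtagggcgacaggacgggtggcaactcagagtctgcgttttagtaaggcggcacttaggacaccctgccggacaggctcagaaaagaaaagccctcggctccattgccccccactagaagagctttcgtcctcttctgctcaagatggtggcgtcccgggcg

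Such windows were found for 29 of the 35 genes (34 windows, as some genes have several starts). The letters AGGTCA occurred on either strand in 8 of these windows (23.5%), one each for *Acacb*, *Acadm*, *Acadvl*, *Acsl6*, *Cd36*, *Cpt1a*, *Echs1* and *Ucp3*, beside 16.3% of all 32851 windows in the table. *Ucp3* holds this half-site 2 times. The full direct repeat AGGTCANAGGTCA, which contains the half-site, was in 0 of the 34 windows and 0.04% of all windows. TCAAGGTCA, which contains it too, was in that of *Acsl6* and in 0.423% of all. TATAAA was found for *Acacb* and in 13.6% of all windows, and CANNTG, the E-box, was in 22 of the 34 (64.7%) and in 72.3% of all. These are matches of letters within 300 bases and say nothing about binding.

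*Fabp3* and *Cd36* had the highest mean levels per length of transcript in control muscle, although *Acot13* was above both in control C (111 CPM per kb, beside 105 for *Cd36* and 104 for *Fabp3*) and above *Cd36* in the miDrp1KO mean (175 beside 166). Per kb of transcript, control muscle held 428 CPM of *Fabp3*, the cytosolic fatty acid-binding protein of heart and oxidative muscle, and 155 CPM of *Cd36*, the membrane translocase, against 1.47 CPM of *Slc27a4*, a fatty acid transport protein with synthetase activity. *Fabp3* was at 677, 85.9 and 294 CPM in controls B, C and D and at 190.4, 586 and 507 CPM in miDrp1KO mice A, E and F. It was the most variable gene of the 35, with a 7.88-fold range among control mice, and its log2 fold change of 0.28 had an interval from −1.91 to 2.48. *Cd36* was at 742, 357 and 486 CPM in control and at 452, 723 and 519.8 CPM in miDrp1KO muscle (log2 fold change 0.10, interval −0.54 to 0.73). As for *Fabp3*, B and E were the highest mice of their groups and C and A the lowest. *Lpl*, the lipoprotein lipase that frees fatty acids in the capillary, had a log2 fold change of 0.06, *Slc27a1*, the insulin-responsive transport protein, one of −0.15, and *Slc27a4* one of 0.07, all with intervals across zero. *Cd36* and *Lpl* are also expressed by fat cells and macrophages, and *Cd36* by endothelium. Of 9 adipocyte markers tested, 5 were lower at an unadjusted p under 0.05 (beside 6.22% of all genes), with summed levels of 229 to 461 CPM in control and 86.6 to 211 CPM in miDrp1KO libraries, and *Ucp1*, the marker of brown fat, was at most 0.632 CPM in any library. The 10 endothelial markers summed to 216 to 387 CPM in control and 233 to 343 CPM in miDrp1KO muscle, 0 of them at an unadjusted p under 0.05, and followed the order B, D, C among the controls in 10 of 10 cases. Of 10 macrophage markers, 7 had positive log2 fold changes and 4 an unadjusted p under 0.05 (beside 4.68% of all genes higher), with sums of 177 to 322 CPM in control and 263 to 301 CPM in miDrp1KO libraries. The part of any of these cell types in the uptake genes was not tested.

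Among the acyl-CoA synthetases, *Acsl1*, the main form of muscle and fat, was far above the others, at 108 CPM per kb in control muscle beside 14.5 for *Acsl3*, 9.02 for *Acsl4*, 8.22 for *Acsl6* and 2.28 for *Acsl5*. *Acsl1* was at 625, 248 and 388 CPM in controls B, C and D and at 264, 366 and 317 CPM in miDrp1KO mice A, E and F. The miDrp1KO libraries lay inside the control range, and the log2 fold change was −0.41 (interval −1.09 to 0.27; adjusted p = 0.652, edgeR). *Acsl3*, known from lipid droplets, *Acsl4*, which prefers arachidonate, and *Acsl5*, a form prominent in the intestine, did not share the order of the controls seen elsewhere in the pathway: replicate C, the lowest control for most genes, was the highest for all 3. Their log2 fold changes were 0.12, −0.14 and 0.10, and *Acsl6*, the form of brain and muscle, gave −0.20, again with intervals across zero.

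All 5 genes of the carnitine shuttle among the 35 had negative log2 fold changes, and only that of *Crat* had an interval that left out zero. The direction was not shared by *Slc25a20*, the translocase of the shuttle, which is not among the 35 (0.16, interval −0.37 to 0.68). *Cpt1a*, the liver form of the outer-membrane transferase, was at 18.7 ± 2.29 CPM in control and 17.2 ± 4.19 CPM in miDrp1KO muscle (SD, n = 3 each; log2 fold change −0.11). *Cpt2*, the inner-membrane transferase, was at 32.0 ± 11.8 and 29.5 ± 5.59 CPM (−0.12), and *Slc22a5*, the carnitine transporter OCTN2 of the plasma membrane, at 8.47 ± 0.903 and 7.93 ± 1.10 CPM (−0.09). *Cpt1b*, the muscle form of the outer-membrane enzyme, was listed at only 2.24 to 6.63 CPM. Its span (chromosome 15, 89416405 to 89425862) lies inside that of *Gm44502* (89416405 to 89429927), which also covers *Chkb*. *Gm44502* had 0 counts in all 6 libraries and *Chkb* at most 7, so the level of *Cpt1b* is uncertain and is not compared with that of *Cpt1a*.

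The 4 acyl-CoA dehydrogenases, which open each round of beta-oxidation and differ in the chain lengths they accept, all had negative log2 fold changes with intervals across zero. *Acadm*, the medium-chain enzyme, was the best expressed per length (154 CPM per kb in control muscle) and had the lowest log2 fold change of the 4. It was at 442, 208 and 295 CPM in controls B, C and D and at 212, 238 and 234 CPM in miDrp1KO mice A, E and F. The miDrp1KO mice were much alike and sat in the lower part of the control range (log2 fold change −0.46, interval −1.03 to 0.10; adjusted p = 0.539, edgeR, and 0.0977 before adjustment). That value was −0.12 without control replicate B (0.623 before adjustment) and −0.71 without control replicate C (0.0133 before adjustment). *Acadvl*, for very long chains, was at 220 ± 102 and 197 ± 38.1 CPM in the respective groups (−0.16), *Acadl*, for long chains, at 155 CPM in control, where it ran from 93.7 to 239.9, and at 134 ± 5.14 CPM in miDrp1KO muscle (−0.21), and *Acads*, for short chains, at 28.8 ± 9.76 and 27.4 ± 6.11 CPM (−0.07; SD, n = 3 each).

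The later steps of the spiral showed no common direction. *Hadha* and *Hadhb* encode the subunits of the trifunctional protein, which carries out the last 3 steps on long chains. They lie head to head on chromosome 5, with starts 273 bases apart, so that 228 of the 300 bases of the *Hadha* window printed above also belong to that of *Hadhb*. *Hadha* was at 332, 142 and 218 CPM in controls B, C and D and at 152, 213 and 222 CPM in miDrp1KO mice A, E and F. *Hadhb* was at 91.6, 46.9 and 60.8 CPM and at 53.7, 73.0 and 77.4 CPM in the same libraries. Both genes ranked the mice of each group in one order, B above D above C and F above E above A. Their log2 fold changes were −0.24 (interval −0.89 to 0.41) and 0.03 (interval −0.51 to 0.58).
*Hadh*, the dehydrogenase for shorter chains, gave 0.04, *Acaa2*, the thiolase, −0.02, and *Echs1*, the short-chain hydratase, 0.28 (interval −0.20 to 0.75). The value of *Echs1* was 0.086 without miDrp1KO replicate F and 0.52 without control replicate B, where its unadjusted p was 0.0414. Besides *Crat*, 5 of the 35 genes overlap the span of another protein-coding gene (*Fabp3*, *Acsl3*, *Echs1*, *Etfb* and *Etfdh*), and how reads there were assigned is not given in the sources used here.

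The auxiliary enzymes bring double bonds into the position that the spiral can use. *Eci1*, an enoyl-CoA isomerase, had the highest log2 fold change of the 35, 0.56, with an interval from −0.46 to 1.59 and an adjusted p = 0.671 by edgeR. It was at 53.2, 26.9 and 30.3 CPM in controls B, C and D and at 31.6, 47.5 and 84.3 CPM in miDrp1KO mice A, E and F, so that the value rested on replicate F and ranged from 0.13 without it to 0.95 without control replicate B. *Eci2*, a second isomerase, was at 42.5 ± 4.72 and 42.7 ± 8.54 CPM (SD, n = 3 each), with an interval of −0.39 to 0.40 for its log2 fold change. *Decr1*, the dienoyl-CoA reductase, was at 212, 105 and 149 CPM in control and at 126, 152 and 152 CPM in miDrp1KO muscle (−0.12).

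Electrons leave the dehydrogenases through the flavoprotein of *Etfa* and *Etfb* and its ubiquinone oxidoreductase, *Etfdh*. *Etfb* was at 88.5, 56.1 and 72.8 CPM in controls B, C and D and at 60.5, 77.8 and 118 CPM in miDrp1KO mice A, E and F. Both flavoprotein subunits had positive values (0.21 for *Etfa* and 0.24 for *Etfb*) and *Etfdh* a negative one (−0.39), and all 3 intervals crossed zero. The value of *Etfdh* was −0.019 without control replicate B and −0.67 without control replicate C, where its unadjusted p was 0.0157. That of *Etfa* was 0.088 without control replicate C and 0.43 without miDrp1KO replicate A, where its unadjusted p was 0.0415. *Acot13*, an acyl-CoA thioesterase, came closest to a higher level. It was at 119.9, 79.9 and 93.7 CPM in controls B, C and D and at 111, 131 and 137 CPM in miDrp1KO mice A, E and F, with control replicate B inside the miDrp1KO range (log2 fold change 0.37, interval −0.06 to 0.80; adjusted p = 0.523, edgeR, and 0.0837 before adjustment). Its log2 fold change was 0.56 without control replicate B (0.0233 before adjustment) and 0.22 without control replicate C (0.333 before adjustment). *Acot2*, the matrix thioesterase, gave 0.17, and its near-identical neighbour *Acot1* could share reads with it, so that both are uncertain.

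**Figure D3:**
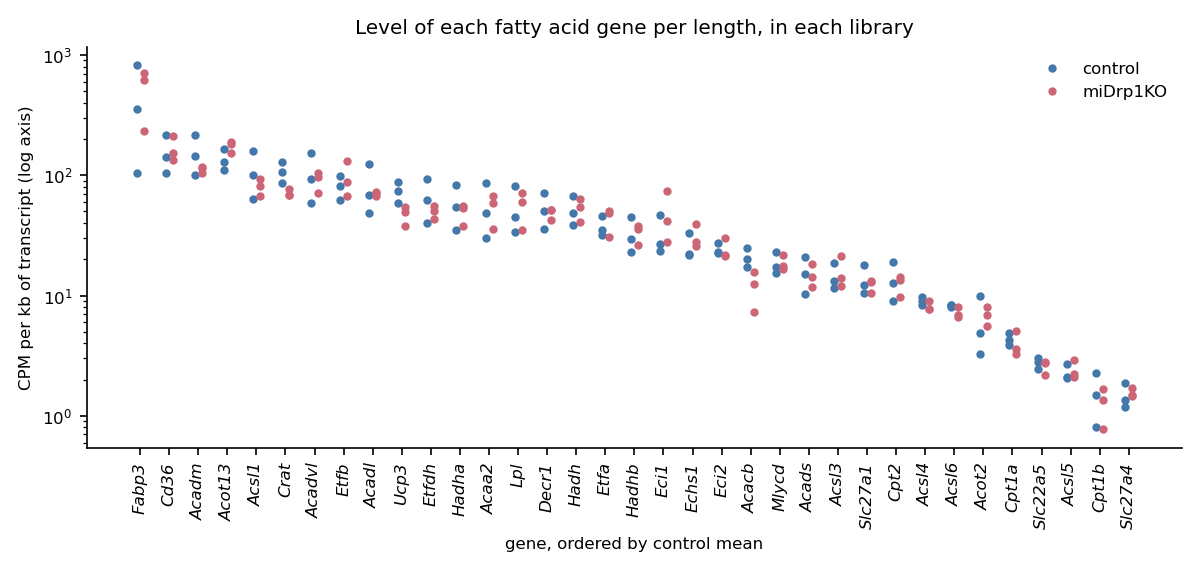
Level of each gene per length (CPM per kb of the principal transcript, log axis) in the 6 libraries, in order of the control mean. Levels run from *Fabp3* at the top, 428 CPM per kb in control, to *Slc27a4* at the bottom, and the points of both groups overlap for all genes except *Acacb*, *Ucp3* and *Crat*.

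The 35 genes ranked the control mice much alike, and most had replicate A lowest among the miDrp1KO mice. In 29 of the 35 genes control replicate B was the highest control, beside 35.3% of all tested genes, and in 29 control replicate C was the lowest, beside 38.9%. In 27 genes replicate A was the lowest miDrp1KO library, beside 33.5% of all genes. Replicate F was the highest miDrp1KO library in 18 genes, E in 12 and A in 5, beside 32.4, 29.4 and 38.1% of all genes. The order B, D, C among the controls together with A as the lowest miDrp1KO library was met by 24 genes, among them all 4 dehydrogenases, all 3 auxiliary enzymes and all 3 electron transfer genes, but by only 1 of the 5 synthetases. The 8 genes with another control order were *Acsl3*, *Acsl4*, *Acsl5*, *Acsl6*, *Cpt1a*, *Slc22a5*, *Echs1* and *Ucp3*. The median deviation of the 35 genes from their control mean, in log2 CPM, was 0.44, −0.38 and −0.04 in controls B, C and D and −0.28, 0.02 and 0.14 in miDrp1KO mice A, E and F, while the median over all tested genes stayed between −0.0025 and 0.019.

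Slow fibre markers stood in the same order among the controls. The mean log2 CPM of 10 such markers was 5.27, 2.01 and 3.10 in controls B, C and D and 2.50, 5.93 and 5.74 in miDrp1KO mice A, E and F. All 10 followed the order B, D, C in controls and 9 had replicate A lowest among the miDrp1KO mice. All 10 had positive log2 fold changes, 0 of them at an unadjusted p under 0.05. When this score was made a covariate, the fit gave 8 of the 35 genes (22.9%) lower at an unadjusted p under 0.05, beside 5.81% of all genes in the same fit, *Acacb*, *Ucp3* and *Crat* together with *Acsl1* (−0.62), *Cpt1b* (−0.70), *Acadm* (−0.61), *Hadha* (−0.48) and *Etfdh* (−0.57), 0 higher (beside 4.28% of all genes) and 0 called after adjustment (beside 0.0243%), with a median log2 fold change of −0.25. The score and the 35 genes come from the same libraries, and whether the score stands for the share of slow fibres was not tested. The share of ribosomal RNA had another order, at 15.6, 7.95 and 3.36% in controls B, C and D and 23.0, 1.48 and 24.4% in miDrp1KO mice A, E and F.

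**Figure D4:**
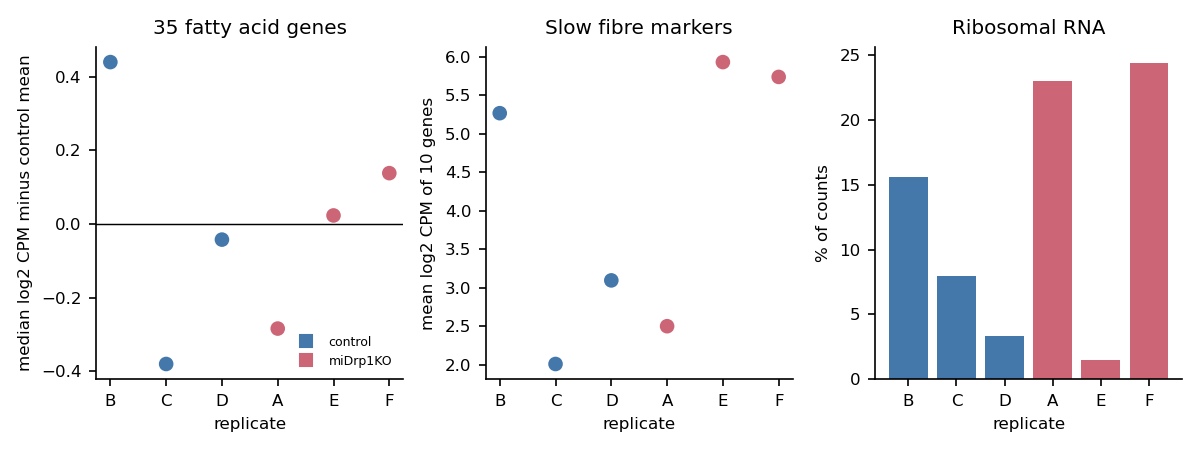
For each library, the median deviation of the 35 genes from their control mean (log2 CPM), the mean log2 CPM of 10 slow fibre markers and the percentage of counts on ribosomal RNA genes. B has the highest and C the lowest value of the controls in both of the first panels, and A the lowest of the miDrp1KO mice, whereas ribosomal RNA takes the largest shares in A and F.

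**Figure D5:**
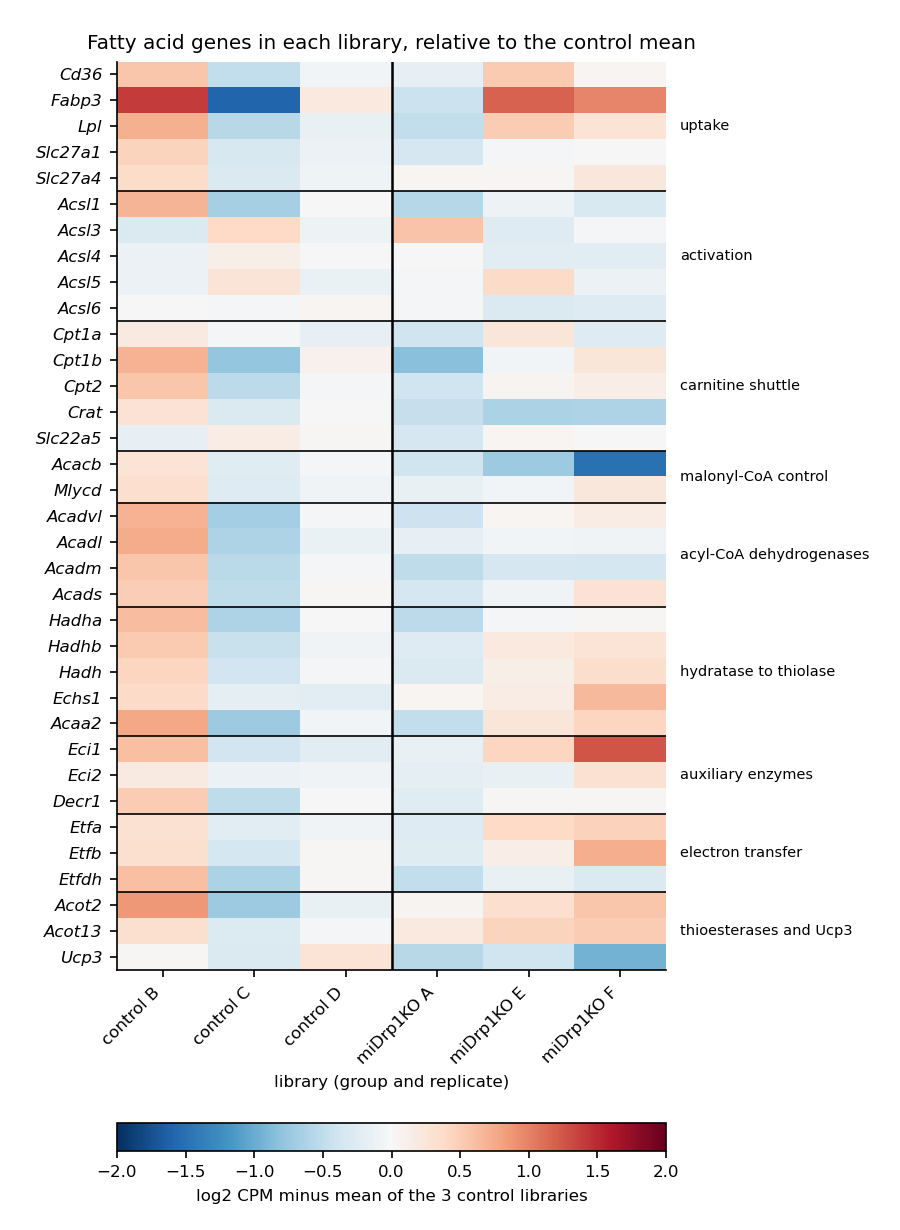
Log2 CPM of the 35 genes in each library minus the mean of the 3 control libraries, in pathway order, with red above and blue below that mean. Replicate B is above and replicate C below the control mean for most genes, and *Fabp3* spans the widest range. The rows of *Crat*, *Acacb* and *Ucp3* are blue in all 3 miDrp1KO columns, as are, among others, those of *Acsl1*, *Acadm*, *Acadl* and *Etfdh*.

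Transcript length was compared as well. With all genes split into 4 equal classes of transcript length, 11 of the 35 were in the shortest (up to 1970 bases), of which 8 had positive log2 fold changes, with a median of 0.21 beside 0.07 for all genes of that class. Of the 13 in the next class (up to 3069 bases), 2 were positive, with a median of −0.15 beside −0.01. Of the 9 in the third class (up to 4583 bases), 5 were positive, with a median of 0.06 beside −0.03, and the 2 in the longest class were both negative, with a median of −0.48 beside −0.02. With a correction for length and GC content the same 3 genes were lower, beside 7.77% of all genes in that fit, and 0 were higher, beside 4.91%. The log2 fold change was 0.20 in place of 0.37 for *Acot13*, 0.07 in place of 0.24 for *Etfb* and 0.11 in place of 0.28 for *Fabp3*. Other genes of the shortest class moved less, among them *Eci1* (0.46 in place of 0.56), *Etfa* (0.14 in place of 0.21), *Echs1* (0.26 in place of 0.28) and *Hadh* (0.06 in place of 0.04). The part of length in these values was not tested further.

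Other genes of fatty acid metabolism were taken from 3 further lists. Of 21 further mitochondrial and uptake genes tested, 0 had an unadjusted p under 0.05 in edgeR, with 9 above and 12 below zero and a median log2 fold change of −0.04. *Slc25a20*, the carnitine-acylcarnitine translocase that completes the shuttle, was at 44.3 ± 12.5 CPM in control and 49.4 ± 11.7 CPM in miDrp1KO muscle (SD, n = 3 each; log2 fold change 0.16). The 18 peroxisomal genes tested had a median log2 fold change of −0.12, and 0 of them were called after adjustment. *Abcd2*, a peroxisomal importer of very long-chain acyl-CoA, had a log2 fold change of −0.37 (adjusted p = 0.441, edgeR, and 0.0417 before adjustment), and every miDrp1KO library was below every control library.

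Of 21 PPAR-related regulators and targets, 5 were lower at an unadjusted p under 0.05 (beside 6.22% of all genes tested), 0 were higher (beside 4.68%), and 0 were called after adjustment (beside 0.0121%), with a median log2 fold change of −0.14. *Plin2*, a lipid droplet coat protein, gave −0.52 (adjusted p = 0.379, edgeR, and 0.00727 before adjustment), the retinoid X receptors *Rxra* and *Rxrg*, partners of the PPARs on DNA, −0.55 and −0.52, *Pparg*, the fat cell receptor, −0.68, and *Prkab2*, an AMPK subunit, −0.51. *Pparg* and *Plin2* are also expressed by fat cells, whose markers are given above, and the part of these cells was not tested. *Rxra* was at 136, 173 and 152 CPM in control and at 128, 96.3 and 91.2 CPM in miDrp1KO muscle, without overlap. *Ppara*, the receptor that drives many of the 35 genes, was at 21.8 ± 12.4 and 19.8 ± 4.53 CPM (SD, n = 3 each; log2 fold change −0.14), the coactivator gene *Ppargc1a* at 57.6 ± 18.0 and 68.4 ± 24.7 CPM (0.25), and *Pdk4*, a PPAR target that restrains glucose oxidation, had a value of −0.24. For these 3 genes the groups overlapped.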

How the data were processed

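Total RNA of quadriceps muscle from 3 control and 3 miDrp1KO mice was depleted of ribosomal RNA and sequenced. The authors deposited raw counts per gene (Entrez identifier), made by alignment to GRCm38 and counting with Rsubread, per the study's methods, without normalization. Settings for strand, overlapping genes and multi-mapping reads are not given in the sources used here. The study's tool was DESeq2 1.30.0.

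Here the counts were tested with edgeR 4.0.16 in R 4.3.3 (TMM, filterByExpr, quasi-likelihood fit with robust set, p adjusted over 16483 genes by Benjamini-Hochberg, threshold 0.05). The methods were also run on simulated data with 200 changed genes. At a log2 fold change of 1, edgeR recovered 18.9% of them and DESeq2 40.8%, with 14.0% and 25.1% false calls. At 2, edgeR recovered 83.1% and DESeq2 86.8%, with 5.56% and 13.8% false calls. Standard errors were derived from the fold change and its F statistic. Log2 CPM used a prior count of 2. Lengths came from the principal GENCODE M21 transcript (GRCm38), which with GC content were found for 90.0% of tested genes, and coordinates and promoters from RefSeq GRCm38.p6. All 35 genes are reported. Library values are given for those with an unadjusted p under 0.05 and for the best expressed of each role. Of the other pathway lists, genes with an unadjusted p under 0.05 are named, and a few more, with the markers, were named after their values were seen. One gene of these lists is not reported here. The genes and lists were chosen with earlier results of these data known. No list test was run. Alternatives were DESeq2 1.42.0, RLE and upper quartile normalization, no filter, ribosomal RNA genes and *Lars2* left out, ribosomal RNA share or slow fibre score as covariate, leaving out each mouse, and, added after the data were seen, a correction for length and GC content. P-values set the difference between the groups against the spread among the mice sampled. In edgeR and DESeq2 the estimate of that spread for a gene also draws on the other genes.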

Additional observations from a re-analysis of the deposited data

How the results depend on the processing

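Across the 14 alternatives 0 of the 35 genes were called after adjustment. In the edgeR fits this stood beside 0.00583% (without miDrp1KO F) to 0.0392% (without miDrp1KO A) of all genes. In DESeq2 only 32 of the 35 had an adjusted p, and 0.700% of all genes with one were called (55 of 7852). Of the 35 genes, 10 kept their direction in every alternative, *Acacb*, *Ucp3* and *Crat* among them. At an unadjusted p under 0.05, upper quartile normalization gave 1 higher gene (*Acot13*; 2.86%, beside 7.23% of all genes), where the median of all genes moved to 0.11, and adding the slow fibre score as covariate gave 8 lower genes (22.9%, beside 5.81%). Leaving out 1 mouse at a time gave 1 (without control D, 2.86% beside 2.15% of all genes) to 6 (without control C, 17.1% beside 5.45%) lower genes, 0 to 3 higher genes (without control B, 8.57% beside 5.30%, or without miDrp1KO A, 8.57% beside 8.55%), and a median log2 fold change of −0.20 to 0.20 (without C and without B). The cause was not tested.

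The other 25 genes, all with 95% intervals across zero, changed sign in at least 1 alternative. With the slow fibre score as covariate reversed values were −0.13 for *Cd36*, −0.25 for *Fabp3*, −0.31 for *Lpl*, −0.037 for *Slc27a4*, −0.19 for *Hadhb*, −0.18 for *Hadh*, −0.099 for *Eci2*, −0.039 for *Etfa*, −0.022 for *Etfb* and −0.054 for *Acot2*. With the correction for gene length and GC content reversed values were −0.025 for *Cd36* and 0.013 for *Mlycd*. With the ribosomal RNA share as covariate reversed values were −0.012 for *Slc27a4*, −0.025 for *Acsl3*, −0.0011 for *Hadhb*, −0.0053 for *Hadh* and −0.094 for *Eci2*. Under upper quartile normalization reversed values were 0.0035 for *Slc22a5*, 0.086 for *Mlycd*, 0.016 for *Acads* and 0.067 for *Acaa2*. Under DESeq2 reversed values were 0.0069 for *Mlycd*. Under RLE normalization reversed values were 0.0071 for *Mlycd*. With no filter on low counts reversed values were 0.0062 for *Mlycd*. Without *Lars2* and the ribosomal RNA genes reversed values were 0.038 for *Mlycd* and 0.021 for *Acaa2*. With 1 mouse left out at a time, log2 fold changes ran from −0.14 to 0.44 for *Cd36*, −0.20 to 1.19 for *Fabp3*, −0.20 to 0.52 for *Lpl*, −0.32 to 0.12 for *Slc27a1*, −0.071 to 0.30 for *Slc27a4*, −0.70 to 0.0084 for *Acsl1*, −0.14 to 0.32 for *Acsl3*, −0.070 to 0.21 for *Acsl5*, −0.33 to 0.030 for *Cpt1a*, −0.59 to 0.12 for *Cpt1b*, −0.36 to 0.22 for *Cpt2*, −0.16 to 0.041 for *Slc22a5*, −0.14 to 0.20 for *Mlycd*, −0.46 to 0.28 for *Acadvl*, −0.49 to 0.27 for *Acadl*, −0.31 to 0.22 for *Acads*, −0.51 to 0.14 for *Hadha*, −0.18 to 0.36 for *Hadhb*, −0.15 to 0.31 for *Hadh*, −0.34 to 0.48 for *Acaa2*, −0.15 to 0.12 for *Eci2*, −0.36 to 0.19 for *Decr1*, −0.047 to 0.46 for *Etfb* and −0.13 to 0.74 for *Acot2*. For genes that kept their sign with each mouse left out, they ran from −0.20 to −0.089 for *Acsl4*, −0.25 to −0.15 for *Acsl6*, −0.74 to −0.42 for *Crat*, −1.06 to −0.55 for *Acacb*, −0.71 to −0.12 for *Acadm*, 0.086 to 0.52 for *Echs1*, 0.13 to 0.95 for *Eci1*, 0.088 to 0.43 for *Etfa*, −0.67 to −0.019 for *Etfdh*, 0.22 to 0.56 for *Acot13* and −0.79 to −0.48 for *Ucp3*. The cause was not tested.

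No paired analysis was made, because each letter only names a single library and the labels give no pairing of mice. The study's methods name sequencing pools, and the labels do not say which library was in which pool. The part of the pools in the results was not tested. Of the 35 genes, 30 were above 10 CPM in every library, the lowest count was 32, and the part of depth in the results was not tested. With 3 mice per group, standard errors of 0.15 to 0.85 on the log2 scale set the precision.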
